A study of Mus musculus with 4 samples.

Results

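The respiratory chain and ATP synthase were examined through their subunit genes in pancreatic tissue taken next to tumours of Panc02, a line of mouse pancreatic ductal adenocarcinoma cells. Members were taken by symbol from the deposited count table. These were the mt-Nd, mt-Co, mt-Cytb and mt-Atp genes of mitochondrial DNA (mtDNA) and the nuclear Ndufa, Ndufb, Ndufc, Ndufs and Ndufv genes with a digit, Sdha to Sdhd, and the Uqcr, Cox4i1, Cox5 to Cox8 and Atp5 genes, leaving out symbols that start with Gm or end in -ps. The rule found 97 of 55401 gene identifiers, 13 encoded by mtDNA and 84 by the nucleus, of which 1, Cox6c2, is annotated as a processed pseudogene. The study compared 2 libraries from WT mice with 2 from mice labelled CRFR1-KO, in which the corticotropin-releasing factor receptor gene Crhr1 is targeted (a conditional knockout, per the series text). All mice carried the tumour model. The labels used here do not give the promoter or Cre driver of the deletion, the age or sex of the mice, or whether each library came from its own animal, so p-values reflect how far single libraries scatter, and that scatter may be technical only.

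The chain passes electrons from NADH (complex I) and succinate (complex II) through complexes III and IV to oxygen, and ATP synthase (complex V) uses the proton gradient built on the way to make ATP. Complex II is encoded wholly by nuclear genes. The other complexes combine a hydrophobic core made inside the mitochondrion with subunits imported from the cytosol, so their assembly draws on both genomes. mtDNA is transcribed into long precursors from both strands, which are cut at the tRNAs that lie between most genes. Most of the mRNAs are then polyadenylated. Acinar cells of the exocrine pancreas use much ATP for making and secreting digestive enzymes.

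Sequence features of the mtDNA genes bear directly on how their counts can be read. Nuclear DNA holds old insertions of mtDNA, and 1 of them, on chromosome 1 of the GRCm38 build, spans chr1:24611535-24616197. It carries gene models matching 7 of the 13 mtDNA members (mt-Co1, mt-Co2, mt-Co3, mt-Atp6, mt-Nd3, mt-Nd4 and mt-Nd4l). The next sequences, read from GENCODE M21 transcripts, show 60 bases of mt-Co2 (chrM:7580-7639, plus strand), of its chromosome 1 copy Gm28661 (chr1:24614939-24614998, minus strand) and of its chromosome 2 copy Gm13341 (chr2:22587348-22587407, minus strand). They are shown because the chromosome 1 copy has 0 differences from mt-Co2 in this window, while the chromosome 2 copy has the 3 differences printed in capitals.
mt-Co2: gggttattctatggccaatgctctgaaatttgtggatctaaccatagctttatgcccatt
Gm28661: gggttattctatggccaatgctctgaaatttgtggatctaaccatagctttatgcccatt
Gm13341: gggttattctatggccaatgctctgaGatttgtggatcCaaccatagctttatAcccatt

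The counts followed this difference. mt-Co2, encoding the copper-binding second subunit of cytochrome c oxidase, had 45710, 43889, 42381 and 41371 counts in the 4 libraries, listed as WT 1, WT 2, CRFR1-KO 1, CRFR1-KO 2 here and in every set of 4 values. Gm28661, identical to it over 681 aligned bases, had 45309, 43589, 42199 and 41067, or between 99.1% and 99.6% of the member's count. Gm13341, at 95.9% identity over 684 bases, had 78, 92, 111 and 77. Thus the identical copy was counted nearly as often as the gene itself, and the diverged copy between 0.171% and 0.262% as often.

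The same near-equality held for mt-Atp6, whose copy Gm10925 had between 104% and 105% of its counts in the 4 libraries, and for the copies of mt-Co3, mt-Nd3 and mt-Nd4l, which had between 96.5% and 101%. mt-Nd4 aligned with its copy Gm28439 over 876 bases, and that copy had between 37.9% and 42.0% of the gene's count. Gm29216 matches mt-Co1 over 483 bases and had between 8.91% and 10.8% of its count. How the counting program treated reads that match the gene and its copy alike is not given in the sources used here, so the levels of these 7 genes depend on it. mt-Atp8 lies between mt-Co2 and mt-Atp6 in mtDNA but has no gene model of its own in the chromosome 1 insertion. The stretch between the mt-Co2 and mt-Atp6 copies was not compared with mt-Atp8, so its level may depend on shared reads too. The chromosome 1 copies together held 0.289%, 0.259%, 0.262% and 0.284% of all counts, with overlapping groups. Among nuclear members the closest case was Ndufa12, an accessory subunit of complex I, whose processed pseudogene Gm15920 had between 84.9% and 90.3% of its counts. In all, 53 of 97 members had at least 1 annotated near-copy, which required at least 90% identity over 100 bases and 50% of the copy's transcript.

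**Figure D1:**
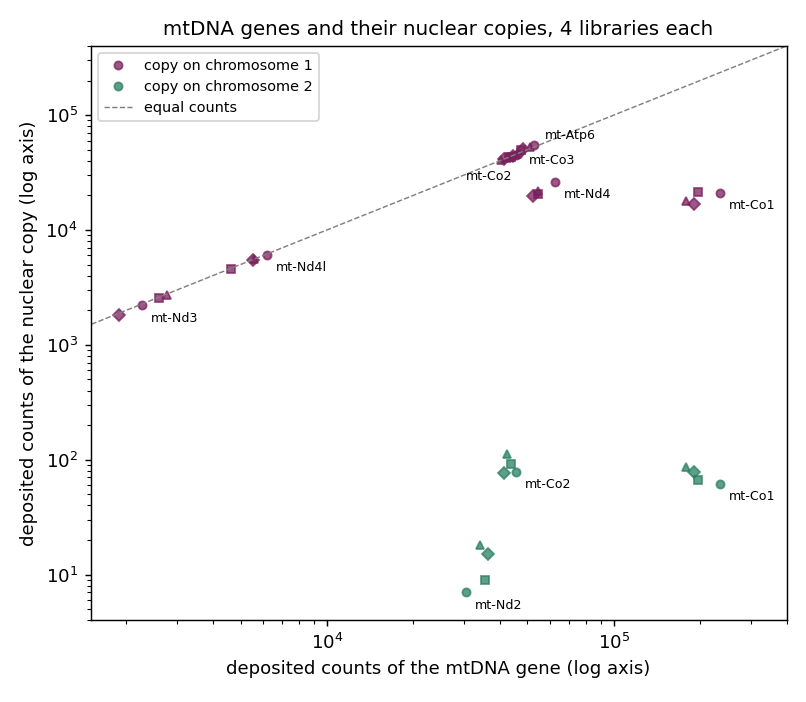
Deposited counts of mtDNA subunit genes (horizontal, log axis) and of their nuclear copies (vertical, log axis), with 1 symbol per library (circle WT 1, square WT 2, triangle CRFR1-KO 1, diamond CRFR1-KO 2) and the dashed line at equal counts. Copies on chromosome 1 of mt-Atp6, mt-Co2, mt-Co3, mt-Nd3 and mt-Nd4l lie on the line, and the diverged copies on chromosome 2 lie far below it, at 7 to 111 counts.

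The compact layout of mtDNA also puts genes on top of each other. mt-Atp8 (chrM:7766-7969) and mt-Atp6 (chrM:7927-8607), both subunits of the membrane part of ATP synthase, share 43 bases in different reading frames (chrM:7927-7969, plus strand). In the shared stretch the capitals mark the start codon of mt-Atp6 and the stop codon of mt-Atp8, and reads here can be assigned to either gene.
mt-Atp8 and mt-Atp6 shared bases: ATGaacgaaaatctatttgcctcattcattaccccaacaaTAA

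Poly(A) tails matter for these transcripts because the libraries were made with oligo(dT) capture. In the annotation, 10 of 13 mtDNA transcripts end with a complete stop codon and 3 (mt-Co3, mt-Cytb and mt-Nd4) end 1 base past a full codon, on a T whose stop codon is completed by the tail. The last 30 bases of mt-Co1 (chrM:6843-6872), mt-Cytb (chrM:15259-15288) and mt-Nd4 (chrM:11515-11544), all on the plus strand, show both kinds, with the complete stop codon or the lone final base in capitals.
mt-Co1: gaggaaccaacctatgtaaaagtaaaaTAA
mt-Cytb: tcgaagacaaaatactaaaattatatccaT
mt-Nd4: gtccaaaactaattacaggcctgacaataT

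Nuclear subunit promoters are known to carry sites for nuclear respiratory factor 1 (NRF1) and for ETS family factors such as GABP. Of the 74 tested nuclear members searched (Atp5a1 and Ndufa2 were not), 62 had an entry in the RefSeq promoter table (GRCm38.p6, 250 bases before to 50 after the start). The letters GCGCA and GCGC with any single base between them, searched on both strands for NRF1, were present in 17 of the 62 (27.4%), against 5.19% of the promoters of 27025 genes. The letters CCGGAAG, searched on both strands for ETS factors, were in 16 of the 62 (25.8%), against 9.93%. A match is a description of the sequence, and binding was not measured. The windows printed next are from the minus strand, with the match in capitals. They hold the NRF1 letters of Sdha, the flavoprotein of complex II (chr13:74350314-74350353), and the NRF1 (chr5:115349096-115349135) and ETS (chr5:115348959-115348989) letters of Cox6a1, the widely expressed form of a cytochrome c oxidase subunit.
Sdha NRF1: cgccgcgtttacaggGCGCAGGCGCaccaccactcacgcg
Cox6a1 NRF1: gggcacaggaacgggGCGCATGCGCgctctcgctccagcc
Cox6a1 ETS: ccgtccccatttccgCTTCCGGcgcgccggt

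Total counts ranged from 63495457 to 71203640 per library, and trimmed mean of M values (TMM) scaling factors from 0.892 to 1.18. Acinar marker genes held 60.6%, 61.1%, 63.04% and 63.9% of counts, more in both CRFR1-KO libraries. Crhr1 (ENSMUSG00000018634, chr11:104132855-104175523) had 0 counts in all 4 libraries, which allows up to between 0.0363 and 0.048 CPM (counts scaled to a common library size) per library at a limit of 3 counts, so it checked no label. Summed fibroblast markers (9 of 9 detected, among them Col1a1 and Dcn) were at 522, 245, 168 and 193 CPM, islet markers (13 of 13) at 44.2, 287, 249 and 311 CPM, and macrophage markers (7 of 7) at 116, 86.1, 41.9 and 67.3 CPM, all relative to TMM-scaled library sizes. Duct markers (9 of 9) were at 307, 224, 186 and 184 CPM. The fibroblast, macrophage and duct sums were lower in both CRFR1-KO libraries, and the part of these cell types in the subunit values was not tested. In bulk tissue, fewer cells of a type and less RNA per cell cannot be told apart.

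Transcripts from mtDNA made up 1.03%, 0.917%, 0.892% and 1.002% of all counts, and those of the nuclear members 0.149%, 0.145%, 0.133% and 0.137%. The mtDNA share overlapped between the genotypes. The nuclear share was lower in both CRFR1-KO libraries, but this share is set against totals that the digestive enzyme genes dominate, and it is not a scaled level. Counting intervals are narrow here (for WT 1, 1.028% to 1.033% and 0.1479% to 0.1497%, Wilson 95%) and cover counting error only. They refer to deposited counts, and what 1 such count stands for is not settled: the value 4 occurred for 913 genes in WT 1, while 3 occurred for 349 and 5 for 242. The 13 mtDNA genes therefore gave between 6.32 and 7.33 counts for each count of the 84 nuclear genes, with ratios of 6.93, 6.32, 6.69 and 7.33 in the 4 libraries, again with overlapping groups.

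Levels of different genes were compared per length, as CPM per kb of annotated exon averaged over the 4 libraries. On that scale the median mtDNA member was at 811 (range 101 to 1876) and the median of the 76 tested nuclear members at 8.22 (range 0.459 to 38.9), a ratio of 98.6. Exon length here counts every annotated isoform, up to 6443 bases for Atp5l. This lowers the values of such nuclear genes and by itself would make this ratio and those by complex too high. The levels of mtDNA genes with chromosome 1 copies, among them every mtDNA gene of complex IV, also depend on how shared reads were counted. That is not given, so the direction of any error in the ratios is not settled. By complex, the mtDNA median was 77.8 times the nuclear one in complex I, 101 times in complex III, 68.1 times in complex IV and 104 times in complex V. For complex IV the ratio was 77.7, 56.5, 74.7 and 69.1 in the 4 libraries, and for complex I 72.4, 79.0, 77.5 and 81.7, so neither separated the genotypes beyond the spread between libraries.

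Within mtDNA the levels per kb were ordered by gene. mt-Co1, the catalytic subunit of cytochrome c oxidase, stood at 1876, mt-Cytb of complex III at 1173 and mt-Atp6 at 1070. mt-Co2 was at 926, mt-Atp8 at 852, mt-Nd1 at 822 and mt-Co3 at 811. The other complex I genes were lower, with mt-Nd4 at 591, mt-Nd2 at 486, mt-Nd5 at 424, mt-Nd6 at 384, mt-Nd4l at 269 and mt-Nd3 at 101. mt-Nd6 is the sole mtDNA member transcribed from the light strand. Poly(A) tails, which bear on oligo(dT) capture, were not measured, so its level may not compare directly with the others. Neighbours in this order from mt-Co2 to mt-Co3 lay within the spread over libraries, mt-Co2 alone ranging from 808 to 991 CPM per kb. The places of the 7 genes with chromosome 1 copies, mt-Co1 and mt-Atp6 among them, also depend on how shared reads were counted. That is not given, so their order against genes without such a copy is not settled. The same may hold for mt-Atp8, which lies between mt-Co2 and mt-Atp6 in mtDNA.

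The nuclear subunits of 1 complex were far from equal in level. In complex V, Atp5b (ATP synthase beta, 38.9 CPM per kb) and Atp5a1 (alpha, 37.3) form the catalytic head and were the highest. Atp5s, which is not a core subunit, was lowest at 0.459, a spread of 84.7 times that rests on this gene. The next lowest was Atp5k at 2.12. The spread from highest to lowest was 41.0 times in complex I, where Ndufb9 was highest at 30.4 CPM per kb, 11.2 times in complex IV and 2.25 times in complex III. Exon lengths count every annotated isoform, which lowers the values of genes with long rare isoforms.

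**Figure D2:**
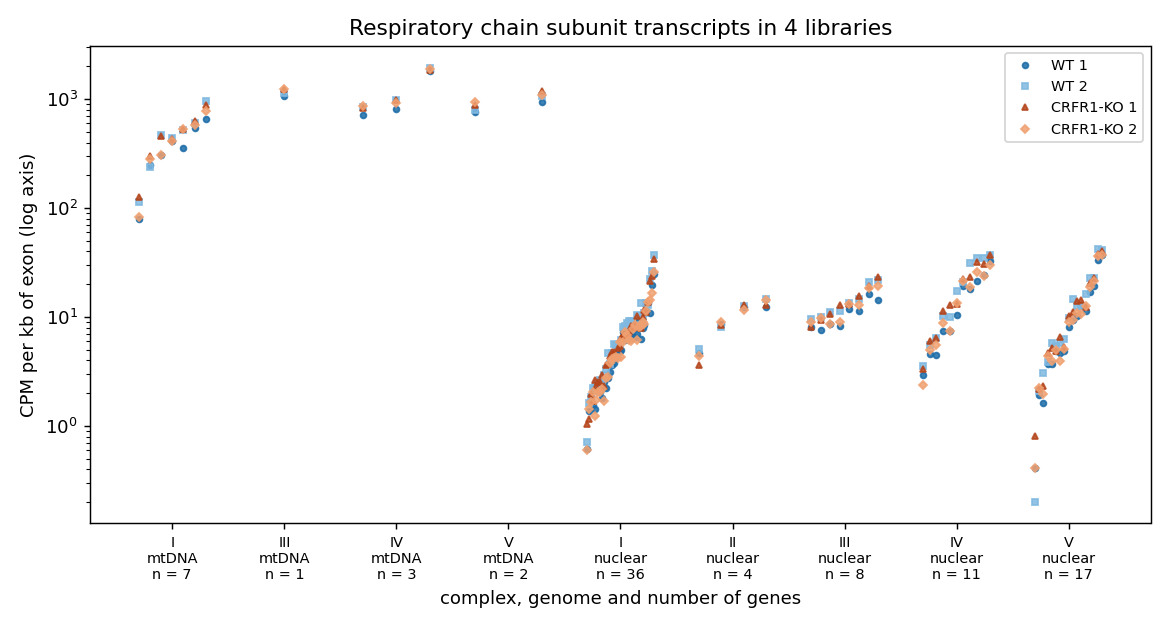
Level of each tested member in CPM per kb of exon (vertical, log axis), by complex and by coding genome, with a point for each of the 4 libraries. Averaged over the 4 libraries, the mtDNA members sit between 101 and 1876 and the nuclear members between 0.459 and 38.9, without overlap.

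Comparing CRFR1-KO with WT, no subunit gene of any complex passed the test. edgeR's quasi-likelihood test at a Benjamini-Hochberg adjusted p under 0.05 over 15131 tested genes called 0 of the 89 members with enough counts to be tested, while it called 4 genes in the whole table (0.0264%). At an unadjusted p under 0.05 it picked 0 of 89 members, against 4.86% of all genes. DESeq2 and limma-voom also called 0 members. The smallest unadjusted p was 0.080, for Ndufv3 (edgeR adjusted p = 0.9999). Log2 fold changes, CRFR1-KO over WT, had a median of 0.01 over members and -0.01 over all tested genes. 46 members were above 0 and 43 below, against 49.2% and 50.8% of genes.

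A test that misses its threshold does not show equal levels, so the intervals matter. The 95% interval of the fold change lay within 2-fold either way for 84 of 89 members, against 51.1% of genes tested, and within 1.5-fold for 31 of 89, against 17.7%. The 5 members whose interval reached past 2-fold were Ndufa2, Ndufa3, Ndufa5, Ndufb2 and Atp5s. The median half-width was 0.50 on the log2 scale, from 0.37 for Atp5g1 to 1.36 for Atp5s. With 2 libraries a side few true 2-fold changes would be called over all genes. In simulated data for this comparison, with changed genes drawn from all tested genes, the edgeR test called 26.0% of them. Intervals within 2-fold were more frequent among members, so this share may not hold for members, for which none was simulated apart. Both CRFR1-KO libraries lay above both WT libraries for 11 members (16.6% of all genes did so) and below both for 5 (16.9%), and the groups overlapped for the other 73.

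**Figure D3:**
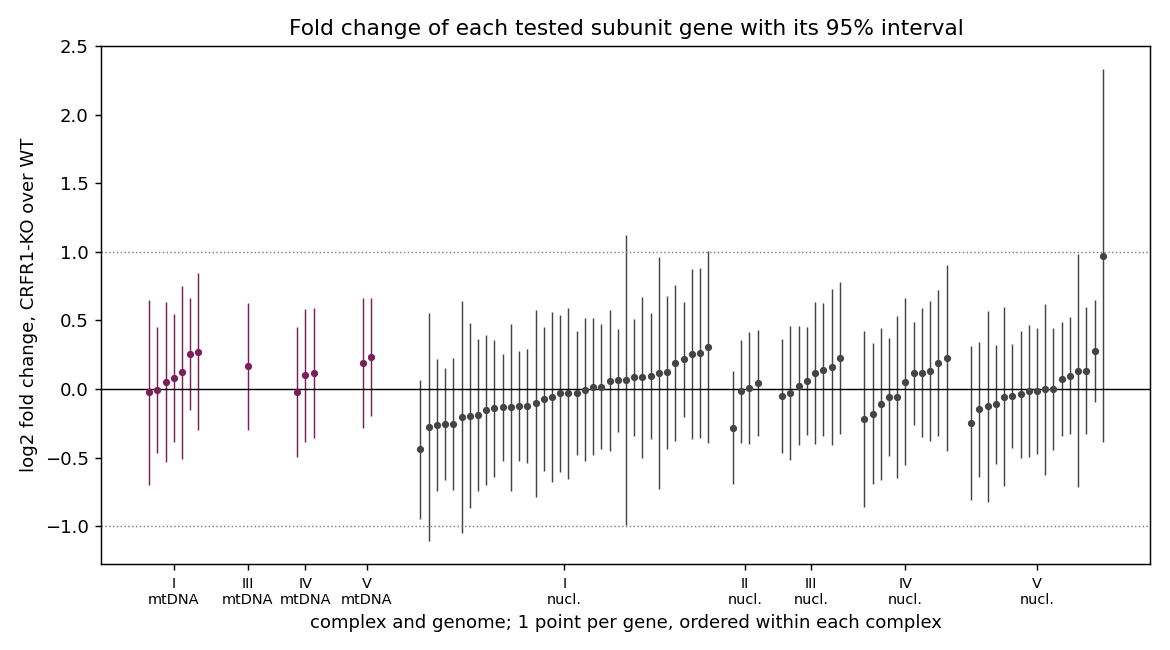
Log2 fold change of each of the 89 tested members (points) with its edgeR 95% interval (lines), CRFR1-KO over WT, grouped by complex and coding genome (nucl. means nuclear), with dotted lines at a 2-fold change. All intervals cover 0, and that of Atp5s, at the far right, is the widest.

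In complex I, mtDNA encodes the 7 subunits of the membrane arm that pump protons. mt-Nd2 was at 368, 546, 547 and 556 CPM (log2 fold change 0.27, SE 0.24). WT 1 was the low library, and the other three were alike, so the groups separated by a narrow margin. mt-Nd4l was at 74.5, 71.02, 89.2 and 84.5 CPM (0.25, SE 0.17), with both CRFR1-KO libraries higher. mt-Nd1 was at 625, 920, 854 and 747 CPM (0.05, SE 0.25), and mt-Nd3 at 27.5, 39.6, 44.2 and 28.8 CPM (0.12, SE 0.27). For both, WT 1 was lowest and the groups overlapped. mt-Nd4 was at 753, 829, 873 and 802 CPM (0.08, SE 0.20), and mt-Nd5 at 749, 802, 783 and 761 CPM (-0.01, SE 0.19). mt-Nd6 was at 160, 242, 238 and 158 CPM (-0.02, SE 0.29), with 1 high and 1 low library in each genotype. The median of the 7 was 0.08.

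The 36 nuclear complex I members had a median of -0.03, 15 above 0 and 21 below. Ndufv3, a small subunit of the NADH-binding module, was at 8.10, 9.30, 7.39 and 5.44 CPM, lower in both CRFR1-KO libraries (log2 fold change -0.44, SE 0.22, 95% interval -0.95 to 0.07). Ndufs3, a core subunit of the peripheral arm, was at 10.3, 12.1, 9.39 and 9.36 CPM (-0.25, SE 0.17). Ndufc2, an accessory membrane subunit, was at 5.54, 6.05, 5.20 and 4.46 CPM (-0.26, SE 0.20). In all 3 the genotypes did not overlap, and none passed the test. Ndufb9, the highest of the group, was at 25.6, 37.9, 35.4 and 26.7 CPM (-0.03, SE 0.24) with 1 high and 1 low library per genotype. Non-overlapping groups were also seen, among others, for Ndufa9 (0.22) and Ndufb3 (0.26), higher in CRFR1-KO, and Ndufs8 (-0.13), lower. Ndufa4 falls here by symbol but is known as a subunit of complex IV, and its values, at 9.36, 12.6, 11.5 and 8.28 CPM, overlapped.

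Complex II, succinate dehydrogenase, is also an enzyme of the tricarboxylic acid cycle. Sdha was at 35.8, 33.6, 34.6 and 37.0 CPM (log2 fold change 0.04, SE 0.16) and its iron-sulphur partner Sdhb at 27.9, 32.7, 29.0 and 31.9 CPM (0.01, SE 0.17). The membrane anchor Sdhd was at 15.1, 15.5, 15.8 and 14.4 CPM (-0.02, SE 0.16). These 3 varied little and overlapped. The other anchor, Sdhc, was at 15.2, 16.5, 11.8 and 14.3 CPM, lower in both CRFR1-KO libraries, with a log2 fold change of -0.28 (SE 0.17, interval -0.69 to 0.13) that did not pass the test.

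Complex III carries electrons from ubiquinol to cytochrome c. Its mtDNA subunit mt-Cytb was at 1228, 1301, 1408 and 1431 CPM, higher in both CRFR1-KO libraries (log2 fold change 0.17, SE 0.20). Of the 8 nuclear members, 6 were above 0 and 2 below, with a median of 0.09 and overlapping groups for all 8. The symbol rule leaves out Cyc1, the cytochrome c1 subunit. The hinge protein gene Uqcrh was at 17.8, 27.1, 28.8 and 23.8 CPM (0.23, SE 0.24), Uqcrq at 15.1, 20.7, 23.7 and 16.4 CPM (0.16, SE 0.24) and Uqcr11 at 7.27, 9.40, 10.02 and 8.34 CPM (0.14, SE 0.21). WT 1 was the lowest library for these 3 small subunits. The core protein gene Uqcrc1 was at 33.8, 40.0, 33.7 and 37.5 CPM (-0.05, SE 0.18), highest in WT 2.

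Complex IV, cytochrome c oxidase, has its core in the 3 mtDNA subunits. mt-Co1 was at 2826, 3008, 2849 and 2908 CPM (log2 fold change -0.02, SE 0.20), mt-Co2 at 553, 671, 678 and 632 CPM (0.10, SE 0.21) and mt-Co3 at 561, 658, 645 and 679 CPM (0.12, SE 0.20). All 3 overlapped between genotypes. Of the 11 tested nuclear members 6 were above 0 and 5 below, with a median of 0.05. Cox4i1, a regulatory subunit and the highest of them in CPM, was at 37.5, 54.2, 48.0 and 37.1 CPM (-0.11, SE 0.24). Cox7c was at 8.33, 11.6, 12.8 and 10.01 CPM (0.19, SE 0.23) and Cox6c at 10.5, 12.6, 12.0 and 8.49 CPM (-0.18, SE 0.22). Both overlapped. Cox6b1 alone separated, at 13.6, 14.8, 15.7 and 15.0 CPM (0.11, SE 0.16).

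Several cytochrome c oxidase subunits come in a widely expressed form and a form of heart and skeletal muscle. The muscle forms were all but missing. Cox6a2 had 6, 0, 6 and 0 counts, Cox7a1 2, 0, 0 and 0, and Cox8b 0, 0, 0 and 5, which is too few to test. Their widely expressed partners had 1898, 1701, 1625 and 1372 counts (Cox6a1, 23.0, 26.0, 26.0 and 20.96 CPM), 812, 1073, 783 and 826 counts (Cox7a2, 9.82, 16.4, 12.5 and 12.6 CPM) and 923, 1265, 901 and 771 counts (Cox8a, 11.2, 19.3, 14.4 and 11.8 CPM). Their log2 fold changes were -0.06 (SE 0.18), -0.06 (SE 0.25) and -0.22 (SE 0.27), with overlapping groups. Skeletal muscle markers were likewise near 0: 7 of 12 were at 0 in all libraries, and the list summed to between 0.336 and 0.886 CPM. The other members not tested were Cox6b2 (5, 0, 0 and 0 counts), Cox8c (0, 4, 0 and 0), the pseudogene Cox6c2 (4, 6, 6 and 4), and Cox7b2 and a further Atp5o gene model, both at 0 in every library.

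In complex V, mt-Atp6 was at 639, 723, 814 and 739 CPM (log2 fold change 0.19, SE 0.20) and mt-Atp8 at 157, 162, 182 and 194 CPM (0.23, SE 0.18). Both were higher in both CRFR1-KO libraries, and the 2 genes share bases and a bicistronic transcript, so they are not independent. The catalytic beta subunit Atp5b, the most abundant nuclear member, was at 156, 174, 173 and 157 CPM, with a log2 fold change of 0.00 (SE 0.19, interval -0.44 to 0.44). The 3 genes for the proton-carrying c ring encode the same mature protein with different import sequences. Of these Atp5g1 was at 18.05, 18.9, 23.0 and 21.7 CPM (0.27, SE 0.16, interval -0.10 to 0.65), higher in both CRFR1-KO libraries, and Atp5g2 at 15.9, 24.6, 18.5 and 15.6 CPM (-0.25, SE 0.24), highest in WT 2. Atp5g3 was at 28.2, 26.9, 31.4 and 23.3 CPM (-0.01, SE 0.20), and both Atp5g2 and Atp5g3 overlapped between genotypes. Pseudogenes with near-identical sequence held between 38.2% and 49.4% as many counts as Atp5g1 and between 37.2% and 45.5% as many as Atp5g2. Atp5s had the largest fold change at 0.97 (SE 0.58, interval -0.38 to 2.33), from 70, 27, 103 and 55 counts that overlapped between genotypes. The 17 tested nuclear members of complex V had a median of -0.01, 7 above 0 and 10 below.

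Set side by side, the mtDNA members had a median log2 fold change of 0.12 (10 of 13 above 0, range -0.02 to 0.27) and the nuclear members of -0.01 (36 of 76 above 0), a difference of 0.13. The 13 genes come from shared precursors in the same 4 libraries and are not replicates, so the libraries set the error. Relative to each gene's mean, the mtDNA median exceeded the nuclear one by 0.00, -0.11, -0.01 and 0.08 in the 4 libraries. On this measure the mean was -0.05 ± 0.08 in WT and 0.03 ± 0.07 in CRFR1-KO (SD, n = 2 each), a difference of 0.09 beside a pooled SD of 0.07. WT 1 lay above CRFR1-KO 1, so the groups overlapped. Without WT 2 the difference of the median log2 fold changes was 0.05 in place of 0.13. Scaling to library totals in place of TMM moved the median of all genes by -0.13, the nuclear median to -0.13 and the mtDNA median to 0.00, and left the difference at 0.13.

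For nuclear members on TMM-scaled levels, libraries of 1 genotype differed more than the genotypes did. WT 1 was the lowest of the 4 libraries for 56 of 89 members, among them 11 of 13 mtDNA and 45 of 76 nuclear genes, and WT 2 the highest for 45. On TMM-scaled levels the median nuclear member was lower in WT 1 than in WT 2 by -0.32 on the log2 scale, while the median over all tested genes differed by 0.01. On library totals the same 2 medians were 0.02 and 0.30. Between CRFR1-KO 1 and CRFR1-KO 2 the nuclear median was 0.21 with TMM, against 0.00 for all genes, and 0.02 against -0.17 on totals. Thus in both pairs the nuclear members shifted against the other genes, and the scaling sets which of them appears to move. Summed acinar markers were at 513086, 664420, 706783 and 619355 CPM and summed nuclear members at 1259, 1577, 1496 and 1327 CPM, both lowest in WT 1, and WT 1 also had the most fibroblast marker counts. The part of cell composition in this was not tested.

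**Figure D4:**
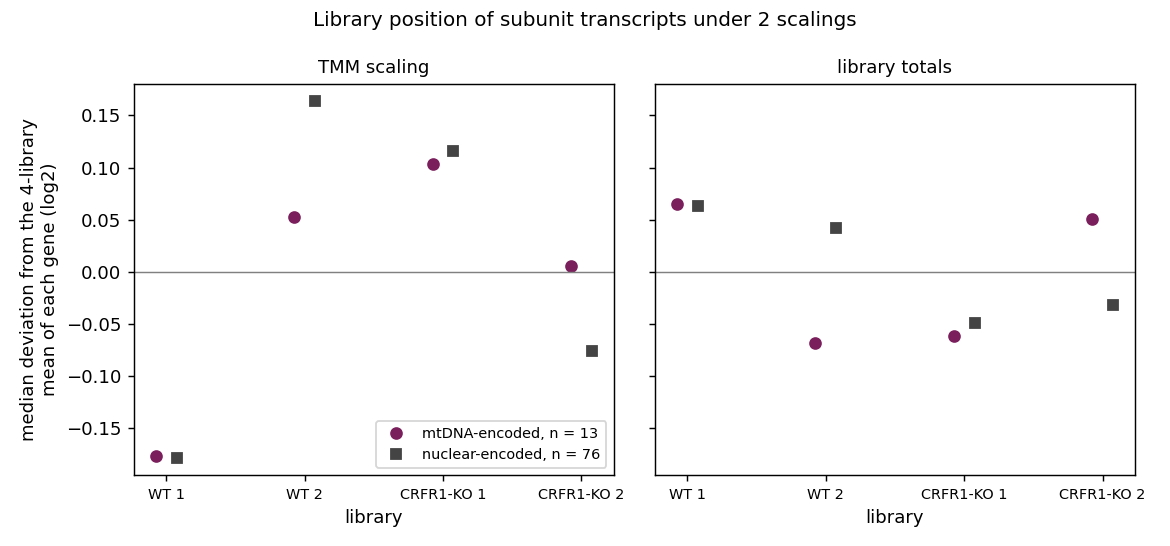
Median deviation of the tested members from each gene's own mean over the 4 libraries (log2, vertical), by library, for mtDNA and nuclear members. The left panel uses TMM scaling and the right panel library totals. With TMM, medians are -0.18 for both genomes in WT 1, and for nuclear members 0.16, 0.12 and -0.08 in the next 3 libraries. On that scale the spread within WT exceeds the difference between genotypes. On library totals the medians are 0.07, -0.07, -0.06 and 0.05 for mtDNA members. For nuclear members they are 0.06, 0.04, -0.05 and -0.03, lower in both CRFR1-KO libraries.

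Genes that serve the chain were examined by list, and edgeR called 0 members of each at an adjusted p under 0.05, as did DESeq2 and limma-voom. At an unadjusted edgeR p under 0.05 there was 1 gene each among assembly factors, mtDNA expression genes and electron carriers, 3 among mitochondrial ribosome genes and 0 in the other lists (4.86% of all genes). Among 46 tested assembly factors the median log2 fold change was 0.11, 30 above 0 and 16 below. Sco2, a copper chaperone for cytochrome c oxidase, had the smallest p, at 42, 23, 86 and 78 counts (1.57, SE 0.49, edgeR unadjusted p = 0.015, adjusted p = 0.94). The ATP synthase assembly factor Tmem70 had 548, 505, 630 and 568 counts (0.39, SE 0.19). Of 31 tested genes for mtDNA expression and upkeep 19 were above 0, with a median of 0.10. The helicase gene Supv3l1, which acts in mitochondrial RNA decay, had 177, 154, 233 and 259 counts (0.77, SE 0.25, edgeR adjusted p = 0.94). Tfam, which packages mtDNA and starts its transcription, had 415, 314, 450 and 408 counts (0.45, SE 0.20), higher in both CRFR1-KO libraries after scaling. The mitochondrial RNA polymerase gene Polrmt had 262, 186, 186 and 301 counts (0.33, SE 0.29), and Lrpprc, which stabilises mtDNA mRNAs, 471, 473, 304 and 351 counts (-0.34, SE 0.21).

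The 11 nuclear regulators had a median of 0.07, 6 above 0. The coactivator gene Ppargc1a, known for driving mitochondrial biogenesis, had 64, 207, 122 and 64 counts (log2 fold change -0.42, SE 0.66), high in WT 2 and low in WT 1 and CRFR1-KO 2. Its relative Pprc1 had 454, 591, 353 and 1019 counts (0.55, SE 0.46), where 1 CRFR1-KO library was high. Ppara had 133, 85, 82 and 49 counts (-0.50, SE 0.43). All 3 overlapped. Among 15 electron carrier genes the median was 0.03, with Coq10b (163, 180, 195 and 342 counts; 0.82, SE 0.33) and Coq4 (171, 83, 147 and 196; 0.68, SE 0.35) first by p, both in the ubiquinone system. The 15 tricarboxylic acid cycle genes had a median of 0.01 and 13 had intervals within 1.5-fold. First by p were Idh3a with 692, 806, 500 and 525 counts (-0.37, SE 0.22) and Suclg1 with 2442, 1868, 1996 and 2052 (0.12, SE 0.16).

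The mitochondrial ribosome, which translates the 13 mtDNA mRNAs, had a median of 0.06 over 78 tested protein genes, 46 above 0. Mrpl53 had 244, 355, 126 and 142 counts (log2 fold change -0.998, SE 0.34). Mrps25 had 388, 157, 416 and 454 (0.93, SE 0.32). Their edgeR adjusted p-values were 0.97 and 0.98. mtDNA rRNA and tRNA genes, of which 11 of 24 could be tested, had a median of -0.33, with 10 below 0. The rRNA genes mt-Rnr1 (2246, 3399, 2009 and 2020 counts) and mt-Rnr2 (1882, 3516, 2076 and 2133) were highest in WT 2. The tRNA genes mt-Ta (29, 52, 19 and 15 counts; -1.09, SE 0.76) and mt-Tc (22, 41, 10 and 12; -1.36, SE 0.87) were lower in both CRFR1-KO libraries, at counts too low for a narrow interval. Most mature tRNAs have no poly(A) tail and are shorter than the inserts selected, so these counts are not their levels. Subunit genes outside the symbol rule included Ndufab1 of complex I, with 566, 359, 459 and 360 counts (0.06, SE 0.23). Cyc1 of complex III, listed here with the electron carriers, had 1686, 1865, 1624 and 1441 counts (-0.03, SE 0.21). Ndufa4l2 had 51, 43, 44 and 54 counts (0.26, SE 0.52). Cox4i2, the lung form of Cox4i1, had 9, 0, 16 and 12 (1.93, SE 1.45).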

How the data were processed

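RNA from 4 tissue samples (2 per genotype) was captured in 2 oligo(dT) rounds and built into strand-marked libraries, per the labels' protocols. The authors deposited unnormalized whole-number counts per Ensembl gene. FastQC, DESeq2 and edgeR are named in the submitters' processing notes; the sources used here do not name the aligner, counter, strand setting, annotation or build. Symbols and GRCm38 positions are from GENCODE M21 (55141 identifiers matched, 260 did not). Promoters are RefSeq's.

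The fit used edgeR 4.0.16 under R 4.3.3 (TMM, filterByExpr, quasi-likelihood F test, two-sided, group alone, Benjamini-Hochberg over 15131 genes); limma 3.58.1 and DESeq2 1.42.0 gave alternatives. CPM use TMM-scaled sizes. With 2 against 2 libraries an exact permutation test cannot go below p = 0.333, so none was used. Copies were found with blastn 2.17.0. On data simulated for the CRFR1-KO comparison with WT (3 simulations, 15131 genes, 200 changed), 26.0% of 2-fold, 70.7% of 4-fold and 0.0223% of unchanged genes were called.

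Members and lists were chosen with earlier results of these data known. Genes named by rule were all mtDNA members, per complex the 3 nuclear members with the smallest p and the most abundant, muscle isoforms with partners, 4 fixed regulators, and the 2 smallest p per other list; other names were chosen after their values were seen. WT 1 and WT 2, and CRFR1-KO 1 and CRFR1-KO 2, differed beyond sampling noise (chi-square per degree of freedom 158 and 44.5). Some values are not reported here.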

Additional observations from a re-analysis of the deposited data

How the results depend on the processing

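No member was called under any alternative run, leaving out each library included, and the smallest adjusted p of a named member was 0.49. The number of genes called in the whole table was 4 and became 58 with the DESeq2 Wald test, 0 with limma-voom (692 at an unadjusted p under 0.05) and 0 with exon-sharing gene models summed (701), and ranged from 0 to 69 when 1 library was left out (40 without WT 1, 69 without WT 2, 2 without CRFR1-KO 1, 0 without CRFR1-KO 2). A lone library is then assumed to vary like the other group. Same-numbered libraries did not deviate together (correlation -0.065). With 1 pair of libraries per genotype this cannot decide whether the numbers pair them, and the labels do not say. With a replicate block 7 genes and 0 members were called. The mtDNA median log2 fold change ranged from 0.011 (without WT 1) to 0.25 (without WT 2) and the nuclear one from -0.14 to 0.20 (without WT 2) when 1 library was left out, and their difference from 0.047 (without WT 2) to 0.15. Counts were divided by 4 because counts of 4 and 8 were more frequent than their neighbours.

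Directions of values near 0 turned with small choices. Atp5b became -0.0038 with DESeq2 size factors, -0.0070 with upper quartile scaling, -0.12 with library totals, -0.0061 with no filter, -0.0077 with a filter of 1 CPM, -0.0038 with DESeq2, -0.00049 with limma-voom and -0.0039 with counts divided by 4. With library totals Sdha became -0.086, mt-Nd1 -0.048, mt-Co2 -0.015 and mt-Nd4 -0.041. Cox7a2 became 4.0e-05 with limma-voom and Ndufb9 0.0047 with exon-sharing models summed. Leaving out 1 library gave ranges across 0 for Atp5b (-0.077 to 0.087), mt-Nd1 (-0.20 to 0.36), mt-Co2 (-0.032 to 0.25), mt-Co1 (-0.062 to 0.031), mt-Nd3 (-0.22 to 0.41), mt-Nd5 (-0.054 to 0.047), mt-Nd6 (-0.35 to 0.31), Ndufb9 (-0.29 to 0.28), Sdhd (-0.083 to 0.055), Uqcrc1 (-0.17 to 0.080), Uqcrh (-0.041 to 0.57), Uqcrq (-0.13 to 0.41), Uqcr11 (-0.033 to 0.34), Cox4i1 (-0.35 to 0.19), Cox6a1 (-0.22 to 0.096), Cox6c (-0.45 to 0.056), Cox7a2 (-0.38 to 0.36), Cox7c (-0.030 to 0.46), Cox8a (-0.56 to 0.23) and Atp5g2 (-0.53 to 0.11). The causes were not tested.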
